A study of Homo sapiens with 24 samples.

Results

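The miR-548 family was taken as every mature microRNA (miRNA) lying inside a hairpin that GENCODE names MIR548 plus letters or numbers, on the same strand and within 3 bases of its ends. The annotation holds 72 such hairpins, and 80 mature miRNAs of the 2652 in the tables lie in them. A total of 240 or more counts over the 24 libraries was required, which kept 65. Rows whose counts differed in every library by no more than 2 counts or 10% were then merged under the row with the largest total, which left 56 members. Members were thus chosen by their total count, a measured value, and the levels below describe them without a test. Just above the minimum were miR-548g-3p (267 counts), miR-548ax-5p (311) and miR-548ay-3p (318), and just below it miR-548ai-5p (227), miR-548ar-3p (146) and miR-548ao-5p (118). Of the 15 left out, 11 had at least 1 count and 4 had none. The total includes the siSFPQ libraries: with a minimum scaled to the 18 other libraries (180 counts), 63 of the 65 would have been kept, but miR-548j-3p (97 counts there) and miR-548g-3p (117) would not. These 2 were kept through the libraries in which they are high, so their levels are given as a description, and the counts for SFPQ knockdown are given over the other 54.

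MicroRNAs are cut from RNA hairpins by Drosha and Dicer, and one strand, from the 5′ arm (5p) or the 3′ arm (3p), is loaded into an Argonaute protein, where its seed, the bases near its 5′ end, pairs with target messenger RNAs. The miR-548 family is found in primates only. Its genes arose from Made1, a short palindromic transposable element whose copies fold into nearly perfect hairpins and are scattered over the genome, many of them in introns. Because the element is palindromic, a 5p product of one copy can be almost the reverse complement of a 3p product of the same or another copy. Individual members have been described as regulators in tumours and in antiviral signalling, but most have no settled role.

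The cells were SBC-3, a human small cell lung cancer line, derived from a single tumour. All of them were reverse transfected with 10 nM of an oligonucleotide and harvested 72 h later, and small RNA was sequenced from 8 groups of 3 libraries. The control groups, labelled WT, received a control siRNA (siCtrl) or a control antisense oligonucleotide (ASO-Ctrl). SFPQ was knocked down with siSFPQ-2 or siSFPQ-3, its partner protein NONO with siNONO-3 or siNONO-4, and the long non-coding RNA NEAT1 with ASO-NEAT1-1047 or ASO-NEAT1-1473. SFPQ and NONO are RNA-binding proteins that assemble with NEAT1 into nuclear bodies called paraspeckles, and the comparison of the 3 targets asks how miRNA levels depend on each. The tables hold miRNAs only, so the depletion of the targets was not measured here. In RNA from whole cultures, fewer cells of a kind and less RNA per cell cannot be told apart. The labels do not say that replicates came from separate cultures, so p-values measure the spread between these libraries, which may be technical.

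Mature sequences from RefSeq (GRCh38.p14) matched 46 of the 65 members. They are printed 5′ to 3′ with the seed, bases 2 to 8, in capitals. The first set shares the seed AAAAACU and is shown because 4 of the 6 members tested in it were higher after SFPQ knockdown (background 25.6%). In it, miR-548j-3p is given as a description.
miR-548aq-3p: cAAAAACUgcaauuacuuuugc
miR-548am-3p: cAAAAACUgcaguuacuuuugu
miR-548ah-3p: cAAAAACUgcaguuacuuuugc
miR-548ae-3p: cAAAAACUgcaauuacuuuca
miR-548aj-3p: uAAAAACUgcaauuacuuuua
miR-548x-3p: uAAAAACUgcaauuacuuuc
miR-548j-3p: cAAAAACUgcauuacuuuugc

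The second set shares the seed AAAGUAA, the seed found most often (11 of the 46 sequences). It is shown because its members moved in both directions.
miR-548ap-5p: aAAAGUAAuugcggucuuu
miR-548j-5p: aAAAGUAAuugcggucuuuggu
miR-548y: aAAAGUAAucacuguuuuugcc
miR-548aq-5p: gAAAGUAAuugcuguuuuugcc
miR-548b-5p: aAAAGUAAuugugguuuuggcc
miR-548ab: aAAAGUAAuuguggauuuugcu
miR-548w: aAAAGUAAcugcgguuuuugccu
miR-548ak: aAAAGUAAcugcgguuuuuga
miR-548bb-5p: aAAAGUAAcuaugguuuuugcc
miR-548ar-5p: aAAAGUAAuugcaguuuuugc
miR-548as-5p: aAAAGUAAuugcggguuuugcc

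A last set shows the members that pair with, or differ little from, another member named below: both GCAAAAG-seeded forms, the partner arm of miR-548bb, and the members whose levels moved most outside the other sets.
miR-548aj-5p: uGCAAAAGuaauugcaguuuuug
miR-548f-5p: uGCAAAAGuaaucacaguuuuu
miR-548f-3p: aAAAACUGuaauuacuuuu
miR-548g-3p: aAAACUGUaauuacuuuuguac
miR-548bb-3p: cAAAAACCauaguuacuuuugc
miR-548k: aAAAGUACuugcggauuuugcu
miR-548av-5p: aAAAGUACuugcggauuu
miR-548e-5p: cAAAAGCAaucgcgguuuuugc
miR-548u: cAAAGACUgcaauuacuuuugcg
miR-548p: uAGCAAAAacugcaguuacuuu
miR-548al: aACGGCAAugacuuuuguacca
miR-548n: cAAAAGUAauuguggauuuugu
miR-548b-3p: cAAGAACCucaguugcuuuugu
The sequences of miR-548aj-5p, miR-548g-5p and miR-548x-5p are the same. The other 19 members were not matched and are given by name: miR-548au-5p, miR-548o2-5p, miR-548t-3p, miR-548ae2-5p, miR-548am-5p, miR-548ay-5p, miR-548h4-3p, miR-548ad-5p, miR-548i-5p, miR-548h-5p, miR-548a-3p, miR-548ap-3p, miR-548az-3p, miR-548e-3p, miR-548az-5p, miR-548a3-5p, miR-548d-3p, miR-548v-3p and miR-548ax-5p.

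The likeness of the sequences limits what a row measures. Among the 46 sequences, 1035 pairs were compared, and 25 pairs shared a run of 18 or more bases on the same strand while 17 shared such a run as reverse complements. The count rule gave 3 merged groups: miR-548o2-5p with miR-548t-3p, miR-548ae2-5p and miR-548am-5p, then miR-548aj-5p with miR-548ar-5p, miR-548g-5p and miR-548x-5p, and last miR-548q with miR-548i-5p, miR-548as-5p and miR-548h-5p. The first of these joins 5p products with a 3p product, although an miRNA of one arm is not a copy of the other arm.

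Opposite arms also carried near-equal counts outside the merged groups. The whole of miR-548aq-3p (22 bases, minus strand, in an intron of IGF2BP2, chr3:185767847-185767868) is the reverse complement of a run in miR-548aj-5p (chrX:38023949-38023971), and the count of miR-548aj-5p was 0.894 to 0.992 times that of miR-548aq-3p over the 24 libraries (median 0.949). The arms of miR-548bb share a reverse-complement run of 20 bases, and miR-548bb-3p had 0.725 to 0.930 times the count of miR-548bb-5p (median 0.841). Likeness alone did not give equal counts: miR-548ae-3p shares 19 bases of the same strand with miR-548aq-3p and had a median of 0.161 times its count, and miR-548x-3p, with 18 bases, had 0.064 times. Neither the strand setting of the counting nor the treatment of reads that align to several copies is given by the labels or headers. Rows with near-equal counts may therefore not be separate measurements. Those within the merging limit were counted once, whereas the arms of miR-548bb, miR-548ap-5p with miR-548j-5p, and miR-548aj-5p with miR-548aq-3p lay outside it and are counted singly below. So are other pairs with long shared runs, among them miR-548ab with miR-548n (median ratio 0.957, range 0.851 to 0.990). Ratios varied more for miR-548p with miR-548am-3p (median 0.972), miR-548am-3p with miR-548ah-3p (0.911), miR-548ae-3p with miR-548aj-3p (0.956) and miR-548w with miR-548ak (0.813). Calls within such pairs may not be independent.

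**Figure D1:**
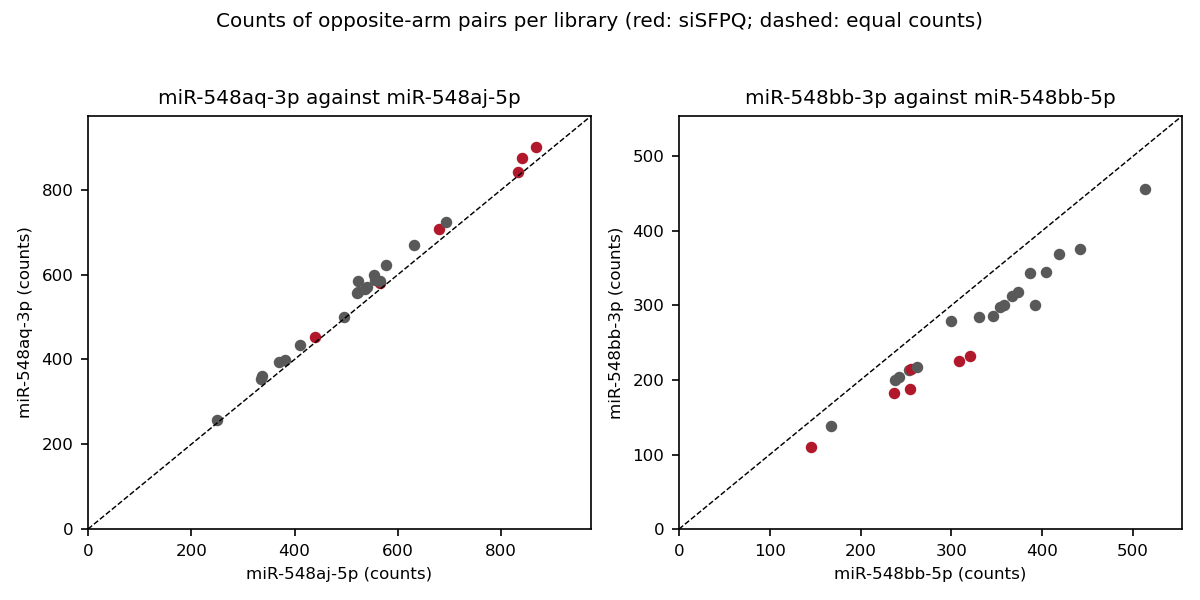
Counts of 2 opposite-arm pairs in the 24 libraries, with miR-548aj-5p and miR-548bb-5p on the x axes and miR-548aq-3p and miR-548bb-3p on the y axes (counts per library). Points are libraries, red for siSFPQ, and the dashed line marks equal counts. The first pair runs along the line (median ratio 0.949) and the second just below it (median ratio 0.841).

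Levels are given as CPM, the count set on a common library size, with library sizes scaled by the trimmed mean of M-values (TMM), which sets the bulk of miRNAs equal between libraries. By mean over the 24 libraries, 17 members were at 100 CPM or more, 16 between 20 and 100 CPM, and 23 below 20 CPM. The 3 most abundant were miR-548au-5p, miR-548o2-5p and miR-548ay-5p. The row of miR-548au-5p lies in an intron of PHF2, a histone demethylase gene (chr9:93594841-93594861, plus strand). miR-548au-5p stood at 129.7, 218 and 245 CPM with siCtrl, 297, 212 and 355 CPM with siSFPQ-2 and 325, 320.5 and 324 CPM with siSFPQ-3. Its mean level in the remaining groups lay between 188 CPM (ASO-Ctrl) and 221 CPM (ASO-NEAT1-1473), and 5 of the 6 siSFPQ libraries were above every siCtrl library. The row of miR-548o2-5p lies in an intron of RALGAPB (chr20:38516569-38516590, plus strand). The levels of miR-548o2-5p were 133.4, 235 and 271 CPM in the siCtrl libraries, 254, 167 and 263 CPM in the siSFPQ-2 libraries and 226, 217 and 233 CPM in the siSFPQ-3 libraries. Here the siSFPQ and siCtrl libraries overlapped. With siCtrl, miR-548ay-5p was measured at 134, 231 and 266 CPM, against 228, 149 and 239.7 CPM with siSFPQ-2 and 204, 191 and 198 CPM with siSFPQ-3. That row is intergenic (chr3:32506342-32506362, minus strand), and its groups overlapped as well.

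A single library touches every comparison with siCtrl. Replicate 1 of siCtrl had the lowest level of all 24 libraries for 34 of the 56 members. The median level over members was 18 CPM in it, against 33.7 and 31.9 CPM in the other siCtrl libraries and 23.1 to 56.9 CPM in the remaining 21. Its total of 3153671 counts lay within the range of the others (2038382 to 4279644). Total counts of calls against siCtrl are therefore also given without it, with the values of the members it moved most. Counts by single siRNA, level or arm are not. In addition, siSFPQ is set against siNONO, a contrast without siCtrl although these libraries enter the shared estimate of the spread.

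After SFPQ knockdown, more members rose than fell. The mean of both siRNAs was set against siCtrl with edgeR's quasi-likelihood test, adjusted by the Benjamini-Hochberg method over all 626 miRNAs tested (threshold 0.05). Of 54 members, 23 were higher (42.6%) and 2 were lower (3.7%), where 25.6% of all tested miRNAs were higher and 22.7% lower. Counting miR-548j-3p and miR-548g-3p as well, 25 of 56 were higher. The median log2 fold change was 0.45 over the 54 and 0.02 over all tested miRNAs, and 39 of 54 were above 0. All 56 had passed the filter on low counts, and log2 fold changes below are given ± their standard error (SE). Every siSFPQ library was above every siCtrl library for 17 of the 54 (background 19.8%), and none had every siSFPQ library below (background 14.2%).

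With siSFPQ-2 alone 21 of 54 members were higher and 0 lower (background 23.2% and 15.5%), and with siSFPQ-3 alone 19 were higher and 2 lower (background 22.7% and 21.7%). Of these, 18 were higher with both and 0 were lower with both, where 20.3% and 14.2% of all tested miRNAs were. Without siCtrl replicate 1, 15 of the 54 were higher and 7 lower, their median log2 fold change was 0.18, and all tested miRNAs had a median of 0.13. These are 27.8% higher and 13% lower, beside 24.1% and 21.2% of all miRNAs tested without that library. The 8 members whose higher call ended were, with their log2 fold changes without that library, miR-548au-5p (0.36), miR-548a-3p (0.42), miR-548ae-3p (0.28), miR-548aj-3p (0.59), miR-548y (0.68), miR-548ag (0.49), miR-548o-3p (0.35) and miR-548m (0.54). Scaled to library totals instead, 34 of 54 were higher and 0 lower, where 40.3% of all tested miRNAs were higher and 10.7% lower. On spike-in totals 23 were higher and 0 lower, where 29.1% and 14.4% of all were. The median of all tested miRNAs moves to 0.47 and 0.21 on those scales, and the median of the 54 to 0.88 and 0.62. The TMM factors of the siSFPQ libraries were 1.09 to 1.36, against 0.846 to 1.03 in the other libraries.

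**Figure D2:**
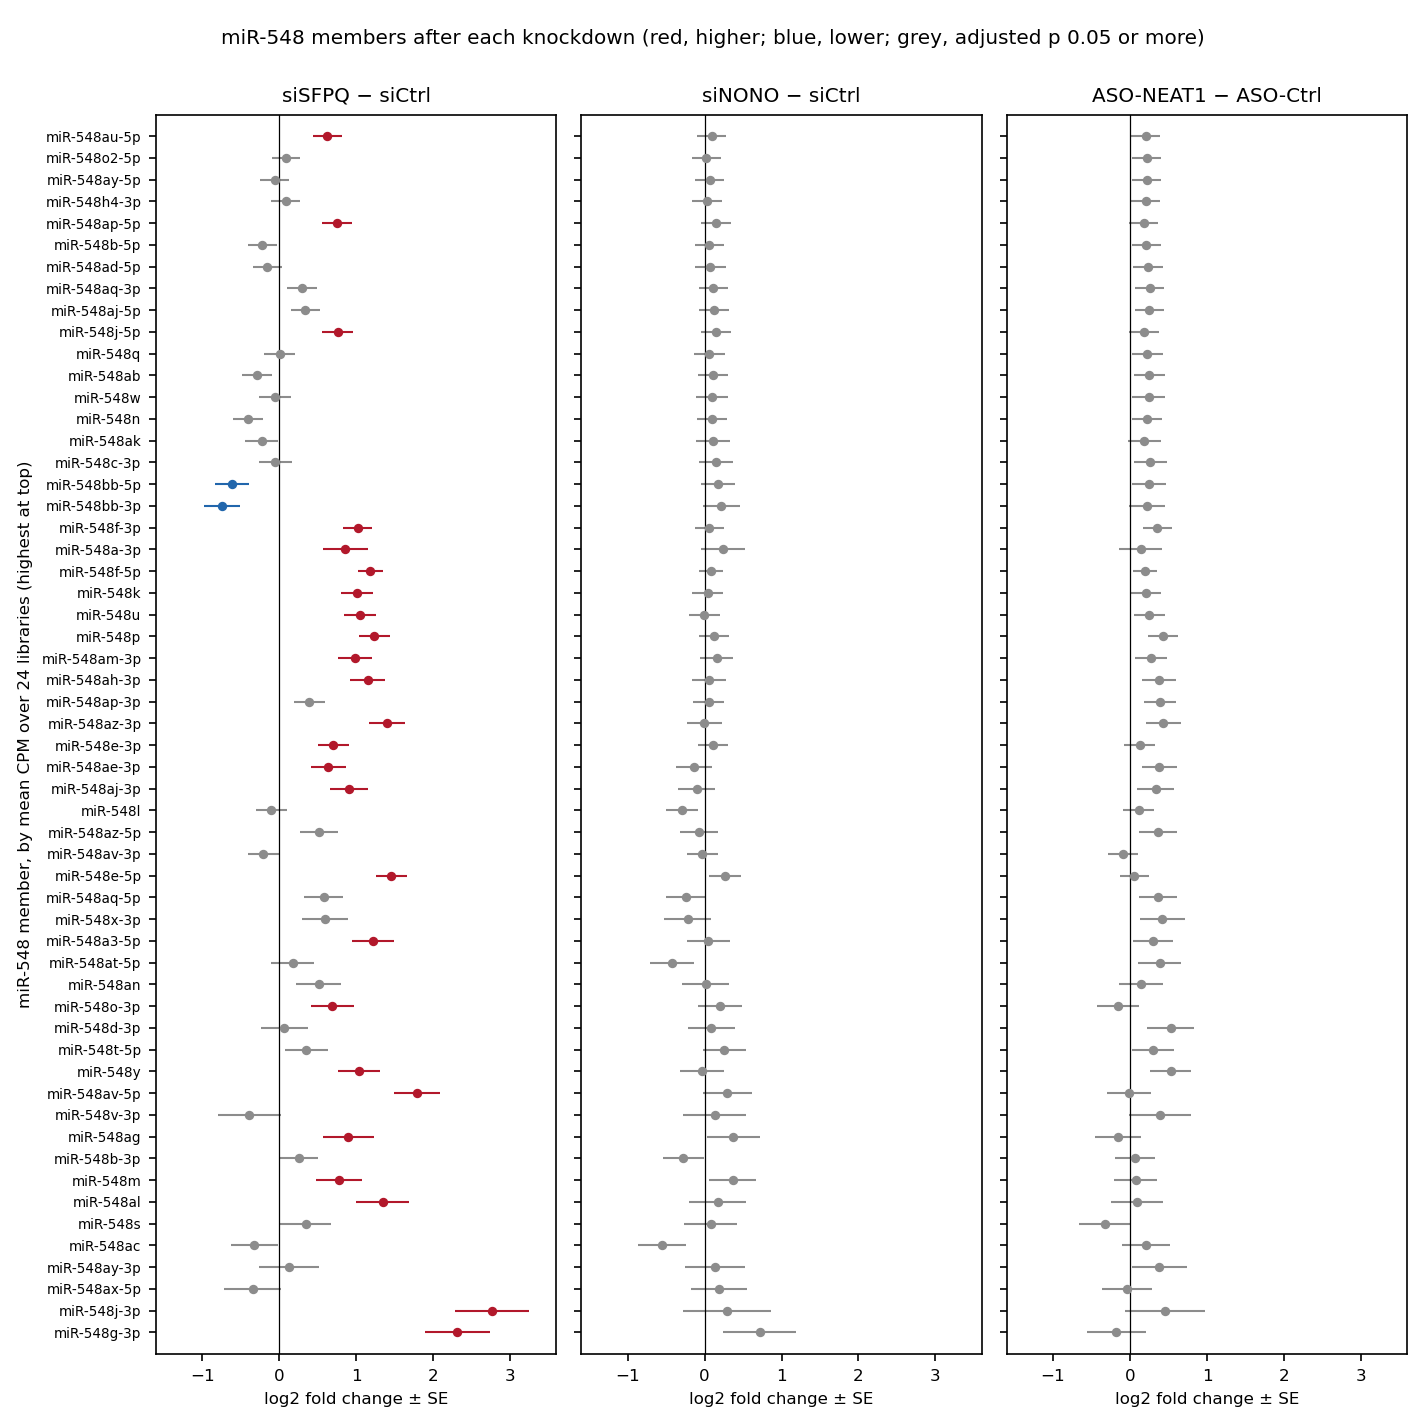
Log2 fold change ± standard error (SE) of the 56 members (rows, most abundant at the top) for siSFPQ against siCtrl, siNONO against siCtrl and ASO-NEAT1 against ASO-Ctrl (x axes). Red and blue points passed the adjusted p of 0.05 as higher (25) or lower (2), all in the first panel, and grey points did not. The red points include miR-548j-3p and miR-548g-3p, which were kept through the siSFPQ libraries and are a description only.

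The share of members that rose differed between levels. At 100 CPM or more, 3 of 17 members were higher and 1 lower, where 14.7% and 36.0% of all tested miRNAs of that level were. Between 20 and 100 CPM, 12 of 16 were higher and 1 lower, against 33.0% and 25.2%. Below 20 CPM, 8 of 21 were higher and 0 lower, against 30.3% and 12.3%. By arm, 11 of 29 members of the 5′ arm were higher and 1 lower, where 24.5% and 26.4% of all tested miRNAs of that arm were. Of the 3′ arm, 12 of 25 were higher and 1 lower, against 26.5% and 19.1%. No difference between these classes was tested, and the counts by class were not made without siCtrl replicate 1. Of the higher calls that ended without it, miR-548y, miR-548ag, miR-548o-3p and miR-548m lie below 20 CPM. miR-548a-3p, miR-548ae-3p and miR-548aj-3p lie between 20 and 100 CPM, and miR-548au-5p above. By arm, miR-548au-5p, miR-548y, miR-548ag and miR-548m are 5p and the others 3p. The shares of these classes therefore depend on that library.

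**Figure D3:**
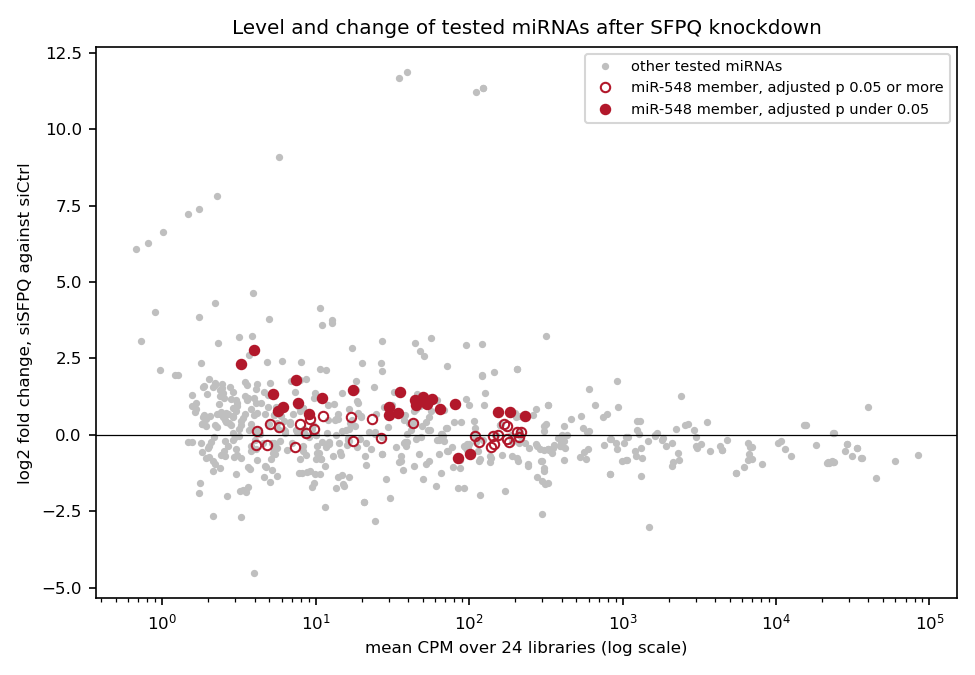
Mean level over the 24 libraries (x axis, CPM, log scale) against the log2 fold change of siSFPQ over siCtrl (y axis) for 626 tested miRNAs. Red circles are the 56 members, filled where the adjusted p was under 0.05. Filled circles above 0 are frequent between 20 and 100 CPM (12 of 16 members), and most circles above 100 CPM are open and near 0.

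Of the 6 tested members with the seed AAAAACU, 4 rose and 0 fell, where 25.6% of all tested miRNAs were higher and 22.7% lower. This set was shown because of these calls, and no effect of a seed was tested. A further member, miR-548j-3p, is given as a description. It lies in an intron of TPST2, a gene for a protein sulfotransferase (chr22:26555239-26555259, minus strand). miR-548j-3p stood at 0.375, 2.32 and 1.65 CPM with siCtrl, 8.45, 7.57 and 7.69 CPM with siSFPQ-2 and 14.3, 10.1 and 14.7 CPM with siSFPQ-3. Every siSFPQ library was above every siCtrl library, at low counts of 11 over 3 siCtrl libraries and 239 over 6 siSFPQ libraries. In the remaining groups the level of miR-548j-3p ran from 0 CPM in 1 siNONO-4 library to 4.26 CPM in 1 siNONO-3 library.

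The 3p products miR-548am-3p and miR-548ah-3p share a run of 21 bases and both rose. The levels of miR-548am-3p were 20.2, 39.9 and 42.4 CPM in the siCtrl libraries, 78.8, 46.7 and 69.9 CPM in the siSFPQ-2 libraries and 73.3, 68.4 and 66.9 CPM in the siSFPQ-3 libraries. With siCtrl, miR-548ah-3p was measured at 15.7, 39.9 and 44.6 CPM, against 70.01, 60.0 and 69.9 CPM with siSFPQ-2 and 73.1, 75.6 and 96.7 CPM with siSFPQ-3. All siSFPQ libraries were above all siCtrl libraries for both. Their log2 fold changes were 0.98 ± 0.22 (adjusted p = 0.000806) for miR-548am-3p, in an intron of CTPS2 (chrX:16627019-16627040, minus strand), and 1.15 ± 0.23 (adjusted p = 0.000259) for miR-548ah-3p, in an intron of SHROOM3 (chr4:76575597-76575618, plus strand). Libraries of siCtrl held 13.5, 36.2 and 30.8 CPM of miR-548ae-3p, those of siSFPQ-2 held 51.3, 36.9 and 38.4 CPM, and those of siSFPQ-3 held 39.1, 38.8 and 46.3 CPM. miR-548aj-3p stood at 13.9, 31.2 and 27.5 CPM with siCtrl, 57, 24.9 and 45 CPM with siSFPQ-2 and 51.8, 48.4 and 45.2 CPM with siSFPQ-3. Both are intergenic and have 2 loci, miR-548ae-3p at chr5:58530047-58530067, minus strand and miR-548aj-3p at chrX:38023912-38023932, minus strand. Their log2 fold changes were 0.64 ± 0.23 (adjusted p = 0.0266) and 0.91 ± 0.24 (adjusted p = 0.00422), and neither passed without siCtrl replicate 1.

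The other AAAAACU members did not pass. miR-548aq-3p had a log2 fold change of 0.30 ± 0.19 (adjusted p = 0.213) and miR-548x-3p of 0.60 ± 0.30 (adjusted p = 0.106). Without siCtrl replicate 1 these were 0.00 and 0.16. The 6 tested members with this seed ranged from 0.30 to 1.15. The row of miR-548aq-3p is the one whose counts match those of the reverse-complementary miR-548aj-5p, which stood at 0.34 ± 0.19 (adjusted p = 0.155), and at 0.05 without that library.

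Among the 9 members with the seed AAAGUAA, 3 rose and 1 fell. These are 33.3% and 11.1%, beside 25.6% and 22.7% of all tested miRNAs. The levels of miR-548ap-5p were 112, 158 and 188 CPM in the siCtrl libraries, 244, 165 and 309.7 CPM in the siSFPQ-2 libraries and 278, 271 and 282 CPM in the siSFPQ-3 libraries. With siCtrl, miR-548j-5p was measured at 101, 128.9 and 153 CPM, against 195, 140.8 and 258 CPM with siSFPQ-2 and 238, 229 and 239 CPM with siSFPQ-3. In each, 5 of 6 siSFPQ libraries were above all siCtrl libraries. The 19 bases of miR-548ap-5p (intergenic, chr15:85825655-85825673, plus strand) all lie within miR-548j-5p (TPST2 intron, chr22:26555274-26555295, minus strand), and the count of miR-548j-5p was 0.781 to 0.897 times that of miR-548ap-5p in the 24 libraries. Their log2 fold changes were close, 0.76 ± 0.20 (adjusted p = 0.00312) and 0.76 ± 0.20 (adjusted p = 0.00344). Libraries of siCtrl held 3.0, 6.64 and 7.71 CPM of miR-548y, those of siSFPQ-2 held 13.9, 12 and 9.88 CPM, and those of siSFPQ-3 held 13.1, 10.5 and 10.9 CPM. That rise, 1.04 ± 0.28 (adjusted p = 0.00366, intergenic, chr14:47761061-47761082, minus strand), was not past the threshold without siCtrl replicate 1.

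The member of this seed that fell was miR-548bb-5p, and its 3p partner, with the seed AAAAACC, fell too. Both lie in an intron of FHIT, a tumour suppressor gene at a common fragile site, on the minus strand (chr3:60617837-60617858 and chr3:60617815-60617836). miR-548bb-5p stood at 62.6, 118 and 139 CPM with siCtrl, 76.6, 45.8 and 93.7 CPM with siSFPQ-2 and 72.4, 67.5 and 61.3 CPM with siSFPQ-3. The levels of miR-548bb-3p were 51.7, 99 and 117 CPM in the siCtrl libraries, 56.7, 34.7 and 78.7 CPM in the siSFPQ-2 libraries and 52.5, 49.3 and 47.3 CPM in the siSFPQ-3 libraries. The groups overlapped: 2 of 6 siSFPQ libraries for the 5p and 3 of 6 for the 3p were below every siCtrl library. The 5p fell by 0.61 ± 0.22 on the log2 scale (adjusted p = 0.0242) and the 3p fell by 0.75 ± 0.23 (adjusted p = 0.0113). In the siNONO groups miR-548bb-3p was at 81.1, 96.5 and 119.8 CPM (siNONO-3) and 97.2, 112 and 115 CPM (siNONO-4), in the ASO groups at 81.6, 68.2 and 97.7 CPM (ASO-Ctrl), 79.4, 106 and 88 CPM (ASO-NEAT1-1047) and 87.4, 113 and 103 CPM (ASO-NEAT1-1473). Neither arm passed on library totals, on spike-in totals, in a fit of the compared groups only, or without siCtrl replicate 2 or 3. Against siNONO, both were lower (-0.79 ± 0.18 and -0.96 ± 0.19, adjusted p = 0.000759 and 0.00020).

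The remaining AAAGUAA members did not pass: the log2 fold changes were -0.22 ± 0.19 for miR-548b-5p, -0.29 ± 0.19 for miR-548ab, -0.05 ± 0.21 for miR-548w, -0.22 ± 0.21 for miR-548ak and 0.58 ± 0.25 for miR-548aq-5p. Without siCtrl replicate 1, miR-548b-5p (-0.47), miR-548ab (-0.56) and miR-548ak (-0.53) passed as lower, together with miR-548n (-0.68), miR-548ad-5p (-0.45) and both arms of miR-548bb (-0.92 for the 5p and -1.06 for the 3p). For these abundant rows the call thus changed with the siCtrl libraries used.

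A 5p and a 3p product of the MIR548F hairpins rose, read at different hairpins (MIR548F1 and MIR548F2) and so not given as the arms of 1 hairpin. The 5p, with the seed GCAAAAG, lies in an intron of the cadherin gene PCDH15 (chr10:54607926-54607947, minus strand), and the 3p, which has 5 loci, was read at an intron of the receptor gene ERBB4 (chr2:212426284-212426302, minus strand). With siCtrl, miR-548f-5p was measured at 35.2, 46.2 and 40.2 CPM, against 83.3, 74.8 and 97.4 CPM with siSFPQ-2 and 93, 94.7 and 112 CPM with siSFPQ-3. Libraries of siCtrl held 37.8, 77.4 and 69.4 CPM of miR-548f-3p, those of siSFPQ-2 held 134, 94.7 and 115 CPM, and those of siSFPQ-3 held 126.01, 132 and 148 CPM. Neither showed any overlap between siSFPQ and siCtrl. The log2 fold changes were 1.18 ± 0.16 for the 5p, with the lowest adjusted p of the family (3.08e-06), and 1.02 ± 0.19 for the 3p (adjusted p = 0.00017). All 19 alternatives tried kept both past the threshold. The miR-548g-3p sequence shares 18 bases with miR-548f-3p and is far scarcer. miR-548g-3p stood at 1.87, 1.33 and 0.55 CPM with siCtrl, 6.04, 4.42 and 8.42 CPM with siSFPQ-2 and 8.37, 6.36 and 6.98 CPM with siSFPQ-3. Every siSFPQ library was above every siCtrl library, with 10 counts over siCtrl and 150 over siSFPQ (intergenic, chr4:147344643-147344664, minus strand). As this row was kept through the siSFPQ libraries, no test is given.

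The seed AAAGUAC is shared by miR-548k and miR-548av-5p, whose 18 bases all lie in miR-548k. The levels of miR-548k were 40.8, 34.9 and 47.3 CPM in the siCtrl libraries, 73.6, 71.3 and 89.3 CPM in the siSFPQ-2 libraries and 96.4, 74.3 and 90.2 CPM in the siSFPQ-3 libraries. With siCtrl, miR-548av-5p was measured at 3.37, 3.99 and 5.5 CPM, against 13.6, 12.9 and 15 CPM with siSFPQ-2 and 14.9, 14.5 and 17.1 CPM with siSFPQ-3. Both sets of siSFPQ libraries lay wholly above siCtrl. The miR-548k row is in an intron of PPFIA1, which encodes a liprin scaffold protein (chr11:70283986-70284007, plus strand), and rose by 1.01 ± 0.21 (log2, adjusted p = 0.000378). The miR-548av-5p row is in an intron of NETO1, a gene for a receptor auxiliary protein (chr18:72853365-72853382, minus strand), and rose by 1.79 ± 0.30 (adjusted p = 3.97e-05). Its 3p partner was at -0.20 ± 0.20 and did not pass (adjusted p = 0.419).

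The other members between 20 and 100 CPM that rose were miR-548u, miR-548p, miR-548az-3p, miR-548e-3p and miR-548a-3p. Libraries of siCtrl held 27.7, 46.8 and 46.8 CPM of miR-548u, those of siSFPQ-2 held 96.6, 53.7 and 83.8 CPM, and those of siSFPQ-3 held 87.1, 86.4 and 96.2 CPM. miR-548p stood at 20.6, 44.8 and 41.8 CPM with siCtrl, 86.3, 69.8 and 76.9 CPM with siSFPQ-2 and 83, 86.4 and 105 CPM with siSFPQ-3. The levels of miR-548az-3p were 12, 32.5 and 28.6 CPM in the siCtrl libraries, 59.4, 59.3 and 57.8 CPM in the siSFPQ-2 libraries and 58.1, 67.7 and 85 CPM in the siSFPQ-3 libraries. In these 3 no siSFPQ library overlapped siCtrl. The log2 fold changes were 1.05 ± 0.21 for miR-548u (adjusted p = 0.000278, intron of PRIM2, a primase subunit gene, chr6:57390180-57390202, plus strand), 1.24 ± 0.20 for miR-548p (adjusted p = 2.49e-05, intron of ST8SIA4, a polysialic acid synthase gene, chr5:100816498-100816519, minus strand) and 1.40 ± 0.24 for miR-548az-3p (adjusted p = 4.62e-05, intergenic, chr8:119325228-119325248, plus strand). With siCtrl, miR-548a-3p was measured at 17.2, 63.8 and 66.6 CPM, against 97.8, 101 and 88.6 CPM with siSFPQ-2 and 65.4, 83.1 and 99.8 CPM with siSFPQ-3. That level was 0.86 ± 0.29 higher on the log2 scale (adjusted p = 0.0177, 3 loci, read at chr8:104484384-104484405, minus strand), with 5 of 6 siSFPQ libraries above siCtrl, and it did not pass without siCtrl replicate 1.

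Both arms of MIR548E rose, and so did both of MIR548A3. The MIR548E hairpin lies in an intron of SHOC2, a scaffold gene of RAS signalling, on the plus strand (chr10:110988940-110988961 and chr10:110988978-110988999). Libraries of siCtrl held 7.49, 11.3 and 12.1 CPM of miR-548e-5p, those of siSFPQ-2 held 27.2, 26.8 and 28.9 CPM, and those of siSFPQ-3 held 27.8, 30.03 and 28.4 CPM. miR-548e-3p stood at 29.2, 27.2 and 23.7 CPM with siCtrl, 46.2, 30.9 and 49.4 CPM with siSFPQ-2 and 46.8, 42.1 and 46.5 CPM with siSFPQ-3. The 2 sets of libraries did not overlap in either arm. The log2 fold changes were 1.46 ± 0.20 (5p, adjusted p = 3.79e-06) and 0.70 ± 0.20 (3p, adjusted p = 0.00673). The levels of miR-548a3-5p were 4.5, 9.3 and 9.91 CPM in the siCtrl libraries, 26, 13.9 and 22 CPM in the siSFPQ-2 libraries and 17.2, 15.6 and 15.8 CPM in the siSFPQ-3 libraries. The increase of miR-548a3-5p, 1.22 ± 0.27 (adjusted p = 0.00086, intergenic, chr8:104484420-104484441, minus strand), was seen in 6 of 6 libraries.

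The remaining members that rose were below 20 CPM. With siCtrl, miR-548al was measured at 2.62, 4.98 and 2.75 CPM, against 10.6, 6.0 and 9.88 CPM with siSFPQ-2 and 8.6, 8.77 and 10.6 CPM with siSFPQ-3. Libraries of siCtrl held 4.12, 9.3 and 9.36 CPM of miR-548o-3p, those of siSFPQ-2 held 15.4, 10.4 and 11.7 CPM, and those of siSFPQ-3 held 13.6, 9.43 and 12.4 CPM. miR-548ag stood at 1.87, 5.98 and 4.95 CPM with siCtrl, 9.05, 7.89 and 8.42 CPM with siSFPQ-2 and 7.92, 6.36 and 8.27 CPM with siSFPQ-3. For these, all 6 siSFPQ libraries were above all 3 siCtrl libraries. The levels of miR-548m were 3.0, 3.99 and 6.05 CPM in the siCtrl libraries, 7.54, 5.37 and 8.42 CPM in the siSFPQ-2 libraries and 8.82, 4.82 and 8.79 CPM in the siSFPQ-3 libraries. Here 4 of 6 were above. The log2 fold changes were 1.34 ± 0.35 for miR-548al (adjusted p = 0.00312, intron of the transcript AP001372.1, chr11:74399301-74399322, plus strand), 0.69 ± 0.28 for miR-548o-3p (adjusted p = 0.0468, RALGAPB intron, chr20:38516607-38516628, plus strand), 0.90 ± 0.33 for miR-548ag (adjusted p = 0.0277, intergenic, chr20:60564565-60564585, plus strand) and 0.78 ± 0.30 for miR-548m (adjusted p = 0.0354, intergenic, chrX:95063192-95063212, minus strand). Of these, miR-548al passed in all 18 alternatives, miR-548ag in 12, miR-548m in 9 and miR-548o-3p in 7 of 18.

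Of the 4 most abundant rows, 1 passed. The log2 fold change of miR-548au-5p was 0.63 ± 0.19 (adjusted p = 0.00925), and that call was lost without siCtrl replicate 1. It was 0.09 ± 0.19 for miR-548o2-5p, -0.06 ± 0.19 for miR-548ay-5p and 0.08 ± 0.19 for miR-548h4-3p, none of which passed. Further down, miR-548ad-5p was at -0.15 ± 0.19 and did not pass. The other members that did not pass ran from -0.41 (miR-548n) to 0.52 (miR-548az-5p): miR-548q, miR-548n, miR-548c-3p, miR-548ap-3p, miR-548l, miR-548az-5p, miR-548at-5p, miR-548an, miR-548d-3p, miR-548t-5p, miR-548v-3p, miR-548s, miR-548ac, miR-548ay-3p and miR-548ax-5p. miR-548b-3p is described with the comparison of the siRNAs.

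Ratios of 2 members within a library do not depend on the scaling of the libraries. These pairs were chosen after their values were seen, and are given as a description. The ratio of miR-548au-5p to miR-548o2-5p counts was 0.934 ± 0.0344 (SD, n = 3) with siCtrl, 1.26 ± 0.0911 with siSFPQ-2 and 1.44 ± 0.042 with siSFPQ-3. In the other 5 groups its mean lay between 0.948 and 0.990. The ratio of miR-548j-5p to miR-548ab counts was 0.887 ± 0.142 with siCtrl, 1.63 ± 0.142 with siSFPQ-2 and 1.93 ± 0.0422 with siSFPQ-3. In siCtrl replicate 1 these ratios were 0.972 and 1.05. In replicates 2 and 3 the first was 0.927 and 0.904 and the second 0.810 and 0.799. The library that stands low in the levels was thus the highest siCtrl library in both ratios, toward the siSFPQ values but below every siSFPQ library.

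Both arms were kept for 16 hairpins. Of them MIR548J and MIR548G are not counted, since their 3p was kept through the siSFPQ libraries. The arms of MIR548A3 and MIR548E all rose, and those of MIR548BB both fell. In MIR548AV and MIR548AP the 5p passed and the 3p did not (0.76 against 0.39 for MIR548AP). The reverse held for MIR548AE2, MIR548AJ2, MIR548AM, MIR548AZ and MIR548O2, whose 3p passed and whose 5p did not. No arm passed in MIR548AQ, MIR548AY, MIR548B and MIR548T. The 5p rows of MIR548AE2, MIR548AM and MIR548O2 and the 3p row of MIR548T form a single merged group. These hairpins are therefore not separate cases of an arm that did not pass. The 5p of MIR548AJ2 is also a merged row. Without siCtrl replicate 1 the 3p calls of MIR548A3, MIR548AE2, MIR548AJ2 and MIR548O2 ended. In MIR548J the miR-548j-3p counts were 0.0109 ± 0.00716 of miR-548j-5p counts with siCtrl, 0.0423 ± 0.012 with siSFPQ-2 and 0.0551 ± 0.00964 with siSFPQ-3 (mean ± SD, n = 3). Differences between arms were not tested.

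**Figure D4:**
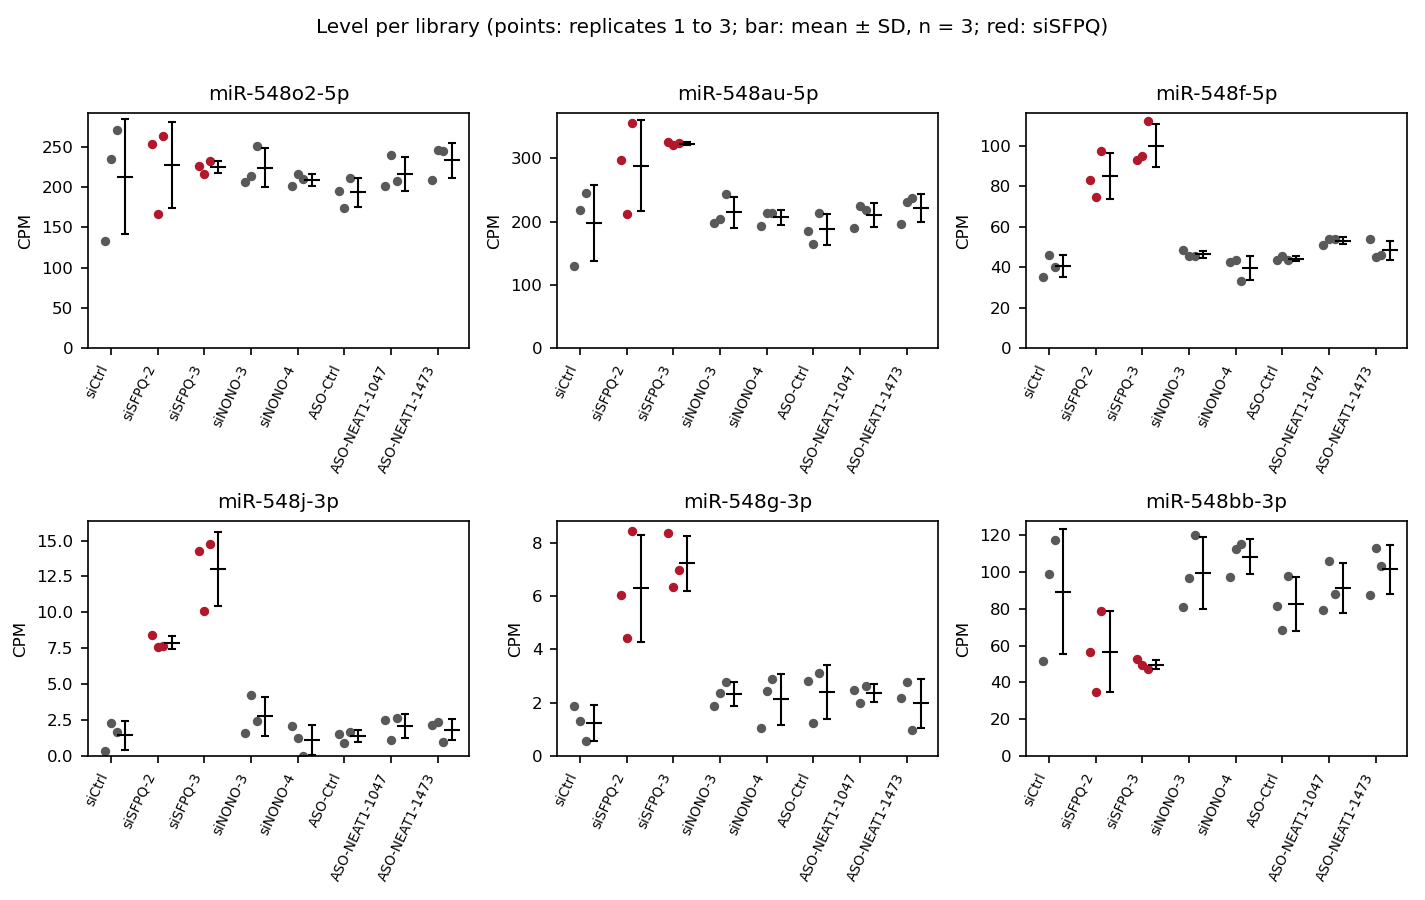
Level of 6 members in every library (y axes, CPM on the TMM scale, starting at 0) by group (x axes); points are replicates 1 to 3, bars show the mean ± SD (n = 3), and siSFPQ is red. The siSFPQ libraries lie above all others for miR-548f-5p (74.8 to 112 CPM against 33 to 54.1 CPM), miR-548j-3p and miR-548g-3p, overlap siCtrl for miR-548o2-5p and miR-548au-5p, and run from 34.7 to 78.7 CPM for miR-548bb-3p.

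No member changed detectably after NONO knockdown. With edgeR 0 of 56 passed in either direction (background 0.958% higher and 0.639% lower), 0 had an unadjusted p under 0.05 (background 11.8%), and DESeq2 also called 0. The median log2 fold change over members was 0.09, and the members ran from -0.56 (miR-548ac) to 0.71 (miR-548g-3p). No member had all siNONO libraries above or below all siCtrl libraries (background 3.99% and 1.92%). For miR-548f-5p the siNONO-3 libraries held 48.5, 45.4 and 45.5 CPM and the siNONO-4 libraries 42.7, 43.5 and 33 CPM, within or near the siCtrl range.

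NEAT1 knockdown gave no call either. With edgeR 0 of 56 members passed, as did 0 of all tested miRNAs (background 0.0% higher and 0.0% lower); 1 member had an unadjusted p under 0.05 (background 3.04%) and DESeq2 called 0. The median over members was 0.22, where that of all tested miRNAs was -0.04, and 49 of 56 members were above 0. With ASO-NEAT1-1473 alone the median was 0.30 (all tested -0.05), and 6 members had an unadjusted p under 0.05 (42 of all 626). With ASO-NEAT1-1047 alone it was 0.16 (all tested 0.02), and 0 members did (5 of all 626). Neither ASO alone gave a call. In 5 members every ASO-NEAT1 library was above every ASO-Ctrl library (background 1.6%), and in 0 every one was below (background 0.479%). These were miR-548p (36 to 51.8 CPM against 29.7 to 31.8 CPM), miR-548ah-3p, miR-548ap-3p, miR-548az-3p and, by a margin of under 1 CPM, miR-548aq-3p. Rows of similar sequence may share reads, so these members may not be independent of each other. The log2 fold change of miR-548p was 0.43 ± 0.19 (adjusted p = 0.908).

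The 2 control groups gave no call. With edgeR 0 of 56 passed (background 0.479% higher and 0.0% lower), 1 had an unadjusted p under 0.05 (background 7.03%) and DESeq2 called 0, with a median of -0.10 over members. Oligonucleotide kind and any difference in preparation cannot be told apart in it.

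Set directly against siNONO, siSFPQ again gave more higher than lower members. Of 54 members 25 were higher and 4 lower, where 29.7% of all tested miRNAs were higher and 26.8% lower, and the median over the 54 was 0.49. Over all 56, 27 were higher and 4 lower. Those lower were miR-548ab (-0.40 ± 0.16), miR-548n (-0.50 ± 0.16) and both arms of miR-548bb. Counts of miR-548ab and miR-548n ran close, as did those of the miR-548bb arms, so these calls may not be independent. On spike-in totals 31 of 54 were higher and 1 lower, where 36.4% and 15.2% of all tested miRNAs were. Over all 56, 33 were higher and 1 lower on that scale. The 56 include miR-548j-3p and miR-548g-3p, which were kept through the siSFPQ libraries, so the counts over the 54 are the ones to read. miR-548f-5p was 1.1 ± 0.13 higher on the log2 scale with siSFPQ than with siNONO (adjusted p = 1.25e-07) and miR-548av-5p 1.5 ± 0.22 (adjusted p = 4.32e-06). This contrast holds no siCtrl library, though these enter the shared estimate of the spread.

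The siRNAs against SFPQ differed in 1 member. miR-548b-3p lies in an intron of FAM184A (chr6:119069062-119069083, minus strand). With siCtrl, miR-548b-3p was measured at 4.5, 7.31 and 5.5 CPM, against 13.6, 11.4 and 10.2 CPM with siSFPQ-2 and 2.94, 3.95 and 5.43 CPM with siSFPQ-3. All 3 siSFPQ-2 libraries were above every siCtrl library, and 2 of the siSFPQ-3 libraries were below every one. From siSFPQ-2 to siSFPQ-3 it fell by 1.52 ± 0.28 on the log2 scale (adjusted p = 0.00917; background 0.639% lower and 0.0% higher), and it passed in 8 of 15 alternatives. The call ended on spike-in totals and without siSFPQ-2 replicate 1 or 3 or siSFPQ-3 replicate 1 or 2. The 439 counts of this row over 24 libraries limit its precision. Against siCtrl the pooled change was 0.25 ± 0.26 (adjusted p = 0.446).

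miRNAs from related elements under other names are miR-570, miR-579 and miR-603, also derived from Made1. Of their 5 tested products 2 were higher after SFPQ knockdown and 0 lower (background 25.6% and 22.7%): miR-579-5p (0.78 ± 0.22, adjusted p = 0.0060) and miR-603-3p (1.04 ± 0.42, adjusted p = 0.0448). The level of miR-579-5p was 22.9, 40.9 and 46.8 CPM with siCtrl, and 38.2 to 78.2 CPM over the 6 siSFPQ libraries. miR-570-3p (0.20), miR-570-5p (0.67) and miR-579-3p (0.00) did not pass. The miRNAs derived from LINE2, an older transposable element, served as a second list. Of 5 tested products, miR-28-5p (-1.14 ± 0.27), miR-28-3p (-0.78 ± 0.20) and miR-95-3p (-1.66 ± 0.29) were lower, which is 3 lower and 0 higher, and miR-151a-5p (0.01) and miR-151a-3p (-0.06) did not pass. The same background applies. Replicate 1 of siCtrl was the lowest siCtrl library for miR-579-5p and miR-603-3p (0.749 CPM against 4.98 and 4.95 CPM). For the 3 lower products it was the highest. It held 71.9 CPM of miR-28-5p (48.2 and 49.0 CPM in the others), 932 CPM of miR-28-3p (561 and 493 CPM) and 27.4 CPM of miR-95-3p (15.9 and 22.0 CPM). The calls of these lists are not given without that library. No difference between these lists and the members was tested.

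Neural and neuroendocrine miRNAs were used to check the labelled cell type: medians over the 24 libraries were 91239 CPM for miR-9-5p and 11582 CPM for miR-7-5p, while miR-375-3p was low (1.36 CPM) and miR-124-3p lower still (0.312 CPM). Their list of 6 summed to 105162 to 121423 CPM with siCtrl and 63298 to 86099 CPM with siSFPQ, with 1 higher (miR-375-3p) and 2 lower. Both epithelial markers, miR-200c-3p and miR-141-3p, were higher and summed to 52.5 to 60.0 CPM with siCtrl and 329.8 to 466 CPM with siSFPQ. Of 4 stromal and muscle markers 3 were lower (483 to 522 CPM with siCtrl and 201 to 294 CPM with siSFPQ), the 1 endothelial marker, miR-126-3p, was lower (792 to 849 CPM with siCtrl and 544 to 664 CPM with siSFPQ), and of 4 blood markers 0 of the 2 tested passed (50.1 to 104 CPM with siCtrl and 27.1 to 66 CPM with siSFPQ), with a median of 0 CPM for miR-223-3p and miR-451a. These lists moved in the same comparison as the members, and their part in the members' changes was not tested.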

How the data were processed

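Libraries were prepared from 100 ng of RNA and added spike-ins with a QIAseq kit, which attaches molecular identifiers, per the labels' protocols. The authors deposited whole-number counts for 2883 miRNA loci and 52 spike-ins in each library, and the header of each table names featureCounts 2.0.3. Among the tools in the submitters' processing notes are Trimmomatic 0.39, Bowtie 1.3.0 and UMI-tools 1.1.1, and the build is hg38. Strand setting, identifier collapse and the fate of reads with several alignments are not given in the sources used here. Libraries held 2038382 to 4279644 miRNA counts.

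For each mature miRNA the locus with the largest total was used, named by its position in GENCODE v29 (GRCh38, the files' build). The filterByExpr function of edgeR 4.0.16 (R 4.3.3, minimum count 10) left 626 miRNAs with 99.97% of the counts. All 24 libraries entered 1 quasi-likelihood fit with TMM factors and group terms only, and p-values were adjusted by Benjamini-Hochberg over the 626. Standard errors were derived from the log2 fold change and the F statistic. On simulated counts of siSFPQ against siCtrl over 626 miRNAs the test recovered 69% of 2-fold and 97% of 4-fold changes and called 1.41% of unchanged miRNAs. The simulated rows were drawn independently, with no deviating siCtrl library and no rows that share reads. These rates may therefore not hold for the members. Alternatives were DESeq2 1.42.0, other scalings, filters, merging limits, a replicate block and left-out libraries. Every member is named, with library values for those past the threshold and the 3 most abundant. The members and lists were chosen with earlier results of these data known.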

Additional observations from a re-analysis of the deposited data

Results flagged for a closer look

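The siRNAs against SFPQ had different effects on miR-548b-3p: its level was -1.52 ± 0.28 (log2, SE) with siSFPQ-3 relative to siSFPQ-2 (adjusted p = 0.00917, edgeR contrast of the siRNAs). Its mean level was 11.7 ± 1.7 CPM (SD, n = 3) with siSFPQ-2, 4.1 ± 1.25 CPM with siSFPQ-3 and 5.77 ± 1.42 CPM with siCtrl. Over the alternatives the log2 difference ran from -1.70 to -1.0 and the adjusted p from 0.00515 to 0.46.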

How the results depend on the processing

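Over all 56, the count of members higher after SFPQ knockdown was 25. It lay between 17 (a mean of at least 10 CPM, which tests 38 members) and 36 (library totals) over the alternatives. Leaving out 1 library gave 17 to 27, and DESeq2 gave 23. Except under the 10 CPM filter, these counts include miR-548j-3p and miR-548g-3p, which were kept through the siSFPQ libraries. Over the other 54 the main fit gave 23 (25.6% of all tested miRNAs) and library totals 34 (40.3%). Spike-in totals gave 23 (29.1%), leaving out siCtrl replicate 1 gave 15 (24.1%), and DESeq2 gave 21. Shares of all tested miRNAs are not given for the remaining alternatives. The count of lower members, 2, was 0 on library totals, 0 on spike-in totals, 1 with no filter, 0 with only the compared groups and 1 when rows within 30% were merged (chosen after seeing the data), and 0 to 7 when 1 library was left out, with 7 without siCtrl replicate 1, 0 without replicate 2 and 0 without replicate 3. The single call between the siRNAs against SFPQ became 0 on spike-in totals, 0 with no filter, 0 in a filter of 10 CPM, which drops the row, 0 with only the compared groups, and 0 to 1 when 1 library was left out. In each case the cause was not tested unless stated. No alternative turned the direction of the 27 called members or of miR-548b-3p between the siRNAs. The 27 include miR-548j-3p and miR-548g-3p, which are a description only. Members that did not pass changed sign: 13 on library totals, 5 on spike-in totals, 1 with RLE factors, 1 with DESeq2, and 0 to 6 when 1 library was left out (6 without siCtrl replicate 1 and 6 without siCtrl replicate 3). None of the members that changed sign passed there. The 0 calls for NONO, NEAT1 and the controls stayed at 0 in all alternatives run.

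Correlations of deviations between same-numbered libraries of different groups ran from -0.419 to 0.619 over 84 pairs (median 0.158) and between differently numbered ones from -0.662 to 0.627 over 168 pairs (median -0.0855). Since not every same-numbered pair was above 0.1, the numbers were not taken to pair samples. That rule is strict, and same-numbered pairs had the higher median, so failing it does not show that pairing is absent. With the replicate block, 24 members were higher and 2 lower over all 56, which include miR-548j-3p and miR-548g-3p. The share of all tested miRNAs is not given for that fit.

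Rows with near-equal counts may share reads, low-count members rest on few counts (miR-548j-3p, 11 counts over siCtrl), and siCtrl replicate 1 is low for 34 members.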
